A study of Mus musculus with 2 samples.

Results

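The claudin genes *Cldn1*, *Cldn3*, *Cldn4*, *Cldn5*, *Cldn6*, *Cldn7*, *Cldn9* and *Cldn12* were followed through the cell classes of the mouse ocular area. These 8 named genes are members of a family with 35 *Cldn* symbols among the 27998 genes of the count tables, and all 8 were counted in at least 1 cell. The optic areas of 1 wild-type (WT) and 1 *Mab21l1*-null (KO) embryo, both of the C57BL/6J strain and at the 26-somite stage (E9.25), were dissociated with trypsin and sequenced as 1 single-cell 3′ library each. *Mab21l1* is a nuclear-factor gene needed for lens formation. Because each genotype is 1 library from 1 embryo, no test between genotypes was possible, and embryo, dissection, library and genotype cannot be told apart. Values are sums of unique molecular identifiers (UMIs), each standing for 1 captured transcript end, or UMIs per 1000000 UMIs of the same cells (CPM). Square brackets hold exact 95% intervals (Poisson for a level, conditional for a ratio, Clopper-Pearson for a share), which cover counting error only.

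Claudins are four-pass membrane proteins that form the strands of tight junctions, the seals between neighbouring cells near their apical side. Barrier-forming members such as claudin 3, claudin 4 and claudin 7 are typical of simple epithelia, claudin 6 of embryonic epithelia, and claudin 5 of endothelial cells, where it is a main component of the blood-brain barrier. The strands are anchored through zonula occludens (ZO) scaffolds to the actin ring and sit beside polarity complexes. At the stage sampled, the surface ectoderm over the optic vesicle thickens into the lens placode, while the optic vesicle itself is neuroepithelium, a tissue that has given up classical tight junctions.

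The WT-labelled library held 1680 cells with 41880035 UMIs and the KO-labelled library 2404 cells with 52430844 UMIs, with medians of 21037 and 18135 per cell. *Mab21l1* itself (chr3:55782510-55785001, plus strand) was counted in both, at 20.3 and 32.5 CPM over all cells of the WT- and KO-labelled libraries, so its level over all cells goes against the labels. In ectoderm-like cells it was lower in the KO-labelled library, at 87.8 against 51.3 CPM, and in neural cells higher, at 27.9 against 49.0 CPM. The lens genes *Pitx3* (50 and 4 UMIs) and *Maf* (197 and 63 UMIs) were also lower in ectoderm-like cells of the KO-labelled library. The exon of *Mab21l1* overlaps *Nbea* on the other strand, and the extent of the deletion is not given in the sources used here, so that every direction below rests on the labels. 15 barcode sequences occurred in both libraries, none of them in ectoderm-like or endothelium-like cells.

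Cells were gated by summed marker genes, none of them a claudin. The gate gave 62 ectoderm-like cells in the WT-labelled library and 49 in that labelled KO, 66 and 105 endothelium-like cells, 487 and 701 mesenchyme-like cells, and 855 and 1256 cells of 4 neural classes (optic vesicle-like, pigment epithelium-like, *Pax2*/*Vax2*-high neural and forebrain-like). Small neural crest-like, erythrocyte-like and macrophage-like classes completed the set, and 112 and 187 cells stayed ungated. All 9 ectoderm markers were counted in the ectoderm-like cells of both libraries, at 1343 and 1335 CPM in sum. All 9 endothelial markers were counted in endothelium-like cells, at 3389 and 3245 CPM. The 9 ectoderm markers together gave 1 and 15 UMIs there, or 0.510 and 5.73 CPM. Among them *Krt19*, *Cdh1*, *Dlx5*, *Dlx6*, *Wnt6* and *Perp* had no UMI there in either library. Of the ectoderm-like cells, 8 lay within 0.1 of the gate's limit for some non-neural marker list, not necessarily that of ectoderm. They were 2 cells of the WT-labelled library and 6 of the other.

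*Cldn6*, *Cldn7* and *Cldn4* marked the ectoderm almost alone. *Cldn6* gave 255 UMIs in the ectoderm-like cells of the WT-labelled library and 250 in those labelled KO, which was 96.0% of all its 526 UMIs. Its level there, 227 CPM [208, 248], was 998 times [646, 1626] that of all other cells. *Cldn7*, whose protein associates with the adhesion molecule Epcam, gave 135 and 128 UMIs in ectoderm-like cells, 95.6% of its total, at 118 CPM [105, 134] and 909 times [512, 1782] the level elsewhere. *Cldn4* gave 52 and 53 UMIs, 88.2% of its total, at 47.3 CPM [38.7, 57.3]. Both libraries therefore placed the ectoderm first for each of these genes, and no other class passed 4 CPM for any of them. Of the 111 ectoderm-like cells, 101 held a *Cldn6* UMI (91.0% [84.1, 95.6]), 93 a *Cldn7* UMI (83.8% [75.6, 90.1]) and 61 a *Cldn4* UMI (55.0% [45.2, 64.4]). In erythrocyte-like cells, which should lack these junction genes, 1 of 90 cells held a UMI of each (1.11%), although their median depth of 34072 UMIs was above the 17554 of ectoderm-like cells. *Cldn6* and *Cldn7* were also among the 10 leading genes of the ectoderm cluster when cells were clustered without any claudin gene.

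**Figure D1:**
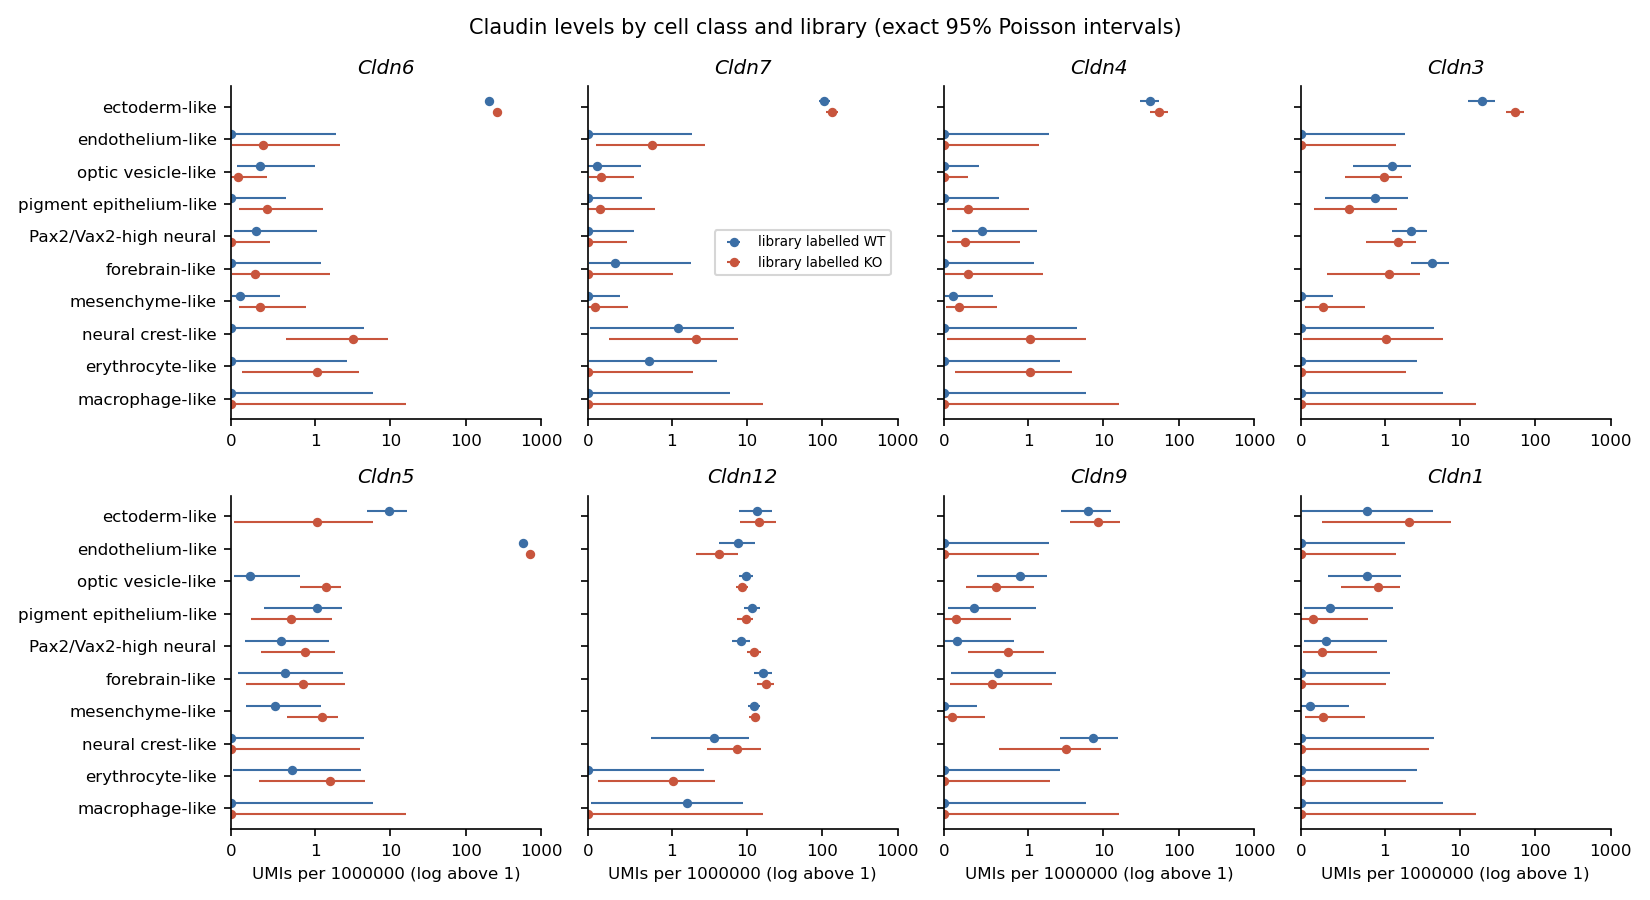
Level of each claudin in UMIs per 1000000 UMIs (x axis, logarithmic above 1) by cell class (y axis) in the libraries labelled WT (blue) and KO (red); bars are exact 95% Poisson intervals. *Cldn6*, *Cldn7*, *Cldn4* and *Cldn3* are highest in ectoderm-like cells and *Cldn5* in endothelium-like cells of both libraries, while *Cldn12* lies between 4.20 and 18.0 in every class but the neural crest-like, erythrocyte-like and macrophage-like cells.

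*Cldn3* shared the ectoderm peak but was less restricted. It gave 25 and 52 UMIs in ectoderm-like cells, 48.4% of its 159 UMIs, and its level of 34.7 CPM [27.4, 43.4] was 39.0 times [28.2, 53.8] that of the other cells. The 4 neural classes held another 77 UMIs, at 1.38 CPM [1.09, 1.73], spread over 73 of 2111 cells. Within them the level ran from 2.57 CPM [1.5, 4.12] in forebrain-like cells through 1.84 CPM in *Pax2*/*Vax2*-high cells and 1.10 CPM [0.703, 1.63] in optic vesicle-like cells to 0.712 CPM in pigment epithelium-like cells; the intervals of neighbours in this order overlap. Endothelium-like cells held none in 171 cells, where 3 counts would be 1.75% and the exact upper bound was 2.13%. Erythrocyte-like cells held none in 90, where 3 counts would be 3.33% and the upper bound was 4.02%, and 1188 mesenchyme-like cells held 3 UMIs. The neural share of 3.46% of cells [2.72, 4.33] was thus above the 0.253% [0.0521, 0.736] of mesenchyme-like cells, whose median depth was 16818 UMIs against 22150.

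The ectodermal claudins are spread over 3 chromosomes (GRCm38, GENCODE M21 annotation). *Cldn3* (chr5:134986214-134987472, plus strand) and *Cldn4* (chr5:134945119-134946934, minus strand) each have 1 exon and lie head to head on opposite strands, with *Cldn13* (chr5:134914249-134915526, minus strand) beyond *Cldn4*. The exon of *Cldn3* overlaps *Wbscr25* on the other strand. *Cldn6* (chr17:23679249-23682446, plus strand, 3 exons) and *Cldn9* (chr17:23682584-23684026, minus strand, 1 exon) lie tail to tail, and *Cldn7* (chr11:69964779-69967885, plus strand) has 5 exons. *Cldn5* (chr16:18776847-18778262, plus strand, 1 exon), *Cldn1* (chr16:26356642-26371841, minus strand, 4 exons) and *Cldn12* (chr5:5489537-5514958, minus strand, 7 exons) complete the members. The E-box CACCTG, which reads CAGGTG on the other strand and is a sequence that Snail and Zeb repressors can bind, was looked for on both strands in RefSeq promoter windows (GRCm38.p6) reaching from 250 bases before to 50 after a start. Windows were matched for 7 of the 8 members, 10 windows in all. Of all 32851 windows 20.2% hold such a hexamer, and 22.6% of 27025 genes have a window that does. The windows of *Cldn1*, *Cldn5* and *Cldn12* held none, and *Cldn9* had no window. With the libraries pooled, *Cldn1* and *Cldn9* also had their highest level in ectoderm-like cells, on few counts. In the WT-labelled library alone *Cldn1* was highest in optic vesicle-like and *Cldn9* in neural crest-like cells. Whether the hexamer goes with the class of a member was not tested. The 4 claudins *Cldn3*, *Cldn4*, *Cldn6* and *Cldn7* held 7 such hexamers between them. The sites are shown because they are what these 4 windows share in letters, with the hexamer in capitals, 12 bases on either side, on the strand of the gene and with positions counted from the start:
*Cldn3*, position 32: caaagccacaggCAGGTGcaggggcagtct
*Cldn4*, position -14: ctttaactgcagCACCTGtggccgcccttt
*Cldn4*, position 12: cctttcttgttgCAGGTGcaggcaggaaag
*Cldn6*, position -93: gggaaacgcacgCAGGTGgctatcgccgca
*Cldn6*, position 41: cagtctcttttgCAGGTGagcc
*Cldn7*, position -97: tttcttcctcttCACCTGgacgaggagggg
*Cldn7*, position -57: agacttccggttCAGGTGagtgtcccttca

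The *Cldn3* site (chr5:134986233-134986262) lay in the exon outside the coding sequence. Of the *Cldn4* sites, that at -14 (chr5:134946931-134946960) lay before the gene and that at 12 (chr5:134946906-134946935) in its exon before the coding sequence. The *Cldn6* sites (chr17:23679260-23679289 and chr17:23679393-23679414) and the *Cldn7* sites (chr11:69965312-69965341 and chr11:69965352-69965381, both in the second of its windows) fell in exons outside the coding sequence. The hexamers of *Cldn6* at 41 and *Cldn7* at -57 span the end of an exon, and their letters are also those of a splice donor. These matches are letters only, and binding was not measured. As levels of the factors that can bind this E-box, chosen after values were seen, *Zeb1* stood at 4.05 CPM in ectoderm-like cells against 32.6 CPM in the neural classes, 43.6 CPM in mesenchyme-like and 94.6 CPM in endothelium-like cells. *Zeb2* stood at 14.4 CPM in the ectoderm against 54.0, 25.9 and 38.2 CPM in the same classes. *Snai1* was highest in mesenchyme-like cells, at 69.3 CPM against 4.05 CPM in the ectoderm, whereas *Snai2* was higher in the ectoderm, at 29.7 CPM, than in mesenchyme-like cells, at 18.7 CPM. The Snail and Zeb genes therefore did not share a single order over the classes.

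*Cldn5* was the endothelial claudin. It gave 1126 and 1841 UMIs in endothelium-like cells of the WT- and KO-labelled libraries, 97.1% of its 3056 UMIs, at 648 CPM [625, 672] and 653 times [529, 816] the level of all other cells. Each of the 171 endothelium-like cells held at least 1 *Cldn5* UMI, from 1 to 57 with a median of 16 in the WT-labelled library and from 1 to 62 with a median of 15 in that labelled KO. The endothelial regulators *Sox17* (79.3 CPM), *Sox18* (104 CPM), *Fli1* (122 CPM) and *Erg* (65.1 CPM) were high in the same cells. Outside them, erythrocyte-like cells held a *Cldn5* UMI in 4.44% of cells [1.22, 11], and the shares of 2.13% in neural cells [1.56, 2.84] and 1.52% in mesenchyme-like cells [0.9, 2.38] were no higher, at medians of 22150 and 16818 UMIs a cell against 34072, so that these low counts could not be told apart from background. One ectoderm-like cell of the WT-labelled library stood apart. It carried 11 of the 13 *Cldn5* UMIs of its class, with 6 *Cldn3*, 31 *Krt8* and 24 *Pax6* UMIs but no UMI of *Cldn6*, *Cldn7*, *Krt18*, *Epcam*, *Cdh1*, *Pecam1*, *Cdh5* or *Kdr* among its 26866. Its ectoderm score of 1.02 was just past the limit of 1, and it grouped with forebrain-like cells when clustered on the 2000 most variable genes less any claudins. The level, share and ratio of *Cldn3* in ectoderm-like cells are therefore also given without this cell.

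*Cldn12*, which lacks the usual carboxy-terminal motif for ZO scaffolds, was the broadly detected member. Its 981 UMIs were spread so that forebrain-like cells stood highest, at 17.3 CPM [14.2, 20.7], followed by ectoderm-like cells at 14.0 CPM [9.49, 19.8] and mesenchyme-like cells at 12.5 CPM [11, 14.1]. *Pax2*/*Vax2*-high, pigment epithelium-like and optic vesicle-like cells followed at 10.6, 10.5 and 9.10 CPM, and these neighbours do not differ beyond their intervals. Endothelium-like cells were lower, at 5.68 CPM [3.71, 8.32], and 90 erythrocyte-like cells held 2 UMIs (0.611 CPM [0.0740, 2.21]). In both libraries forebrain-like cells ranked first for *Cldn12*.

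*Cldn9*, known from the inner ear and the neonatal kidney, gave 57 UMIs in all. Ectoderm-like cells held 8 and 8 of them (7.21 CPM [4.12, 11.7]) and neural crest-like cells 6 and 3 (5.08 CPM [2.32, 9.64]), 2 intervals that overlap, against 0.538 CPM [0.363, 0.768] in the neural classes. *Cldn1*, needed for the epidermal barrier later in development, gave only 34 UMIs, 13 in the WT-labelled library and 21 in that labelled KO. Optic vesicle-like cells held 19 of these in 19 of 788 cells (0.869 CPM [0.523, 1.36]) and ectoderm-like cells 3 (1.35 CPM [0.279, 3.95]), so its order over classes is not fixed at this depth.

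Among the other 27 genes with a *Cldn* symbol, 13 had no UMI in any kept cell. *Cldn11*, known from myelin and Sertoli cells, was the mesenchymal member, with 355 and 529 UMIs or 77.8% of its 1136 UMIs in mesenchyme-like cells at 41.9 CPM. *Cldn13* gave 117 of its 120 UMIs in erythrocyte-like cells, at 35.7 CPM. *Cldn8* gave 18 UMIs, all of them in ectoderm-like cells (13 and 5), and *Cldn23* gave 8 and 5 there. *Cldn10* gave 35 of its 52 UMIs in mesenchyme-like cells, at 1.66 CPM, and *Cldn2* 16 UMIs in the neural classes, where *Cldn22* gave 8 and 7. *Cldnd1*, a claudin-domain gene, was broad like *Cldn12*, at 60.4 CPM in the ectoderm, 55.2 CPM in the neural classes and 71.9 CPM in mesenchyme-like cells. *Cldn34c1* was also broad, between 6.76 CPM in ectoderm-like and 10.9 CPM in forebrain-like cells, but lower in erythrocyte-like cells, at 2.44 CPM, and without a UMI in the few macrophage-like cells.

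Between the libraries, the difference of the ectodermal claudins was largest for *Cldn3*. Ectoderm-like cells held 25 *Cldn3* UMIs at 19.8 CPM [12.8, 29.2] in the WT-labelled library and 52 at 54.4 CPM [40.7, 71.4] in that labelled KO, a ratio of 2.75 [1.68, 4.63], and without the cell described above the WT-labelled level was 15.3 CPM [9.24, 24.0] and the ratio 3.55. *Cldn4* went from 41.1 to 55.5 CPM, with a ratio of 1.35 [0.903, 2.02] that includes no difference. *Cldn6* went from 202 to 262 CPM, a ratio of 1.30 [1.09, 1.55], and *Cldn7* from 107 to 134 CPM, a ratio of 1.26 [0.978, 1.61]. *Cldn12*, with 17 and 14 UMIs, had a ratio of 1.09 [0.498, 2.35]. A gene with at least 20 UMIs over both libraries was called different past 1.5-fold. Of the 5 members with that many in the ectoderm, *Cldn3* was the 1 called, beside 17.6% of all 8166 genes (7.16% higher and 10.4% lower in the KO-labelled library). The ratio of *Cldn3* was reached or passed by 35 genes, itself included, or 0.429%. The median ratio of the 5 members was 1.30, beside 0.993 over all genes. *Cldn9* with 8 and 8, *Cldn1* with 1 and 2 and *Cldn5* with 12 and 1 UMIs had too few counts to be called, the last resting on the single cell above. Outside the 8 members the ratios in these cells went both ways. *Cldn8* stood at 0.509 [0.142, 1.52] and *Cldn23* at 0.827 [0.213, 2.87]. *Cldn11* stood at 1.47 [0.537, 4.09], *Cldn34c1* at 1.16 [0.358, 3.66] and *Cldnd1* at 1.07 [0.751, 1.53]. Each of these intervals includes no difference, and only *Cldnd1* had enough counts to be called.

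**Figure D2:**
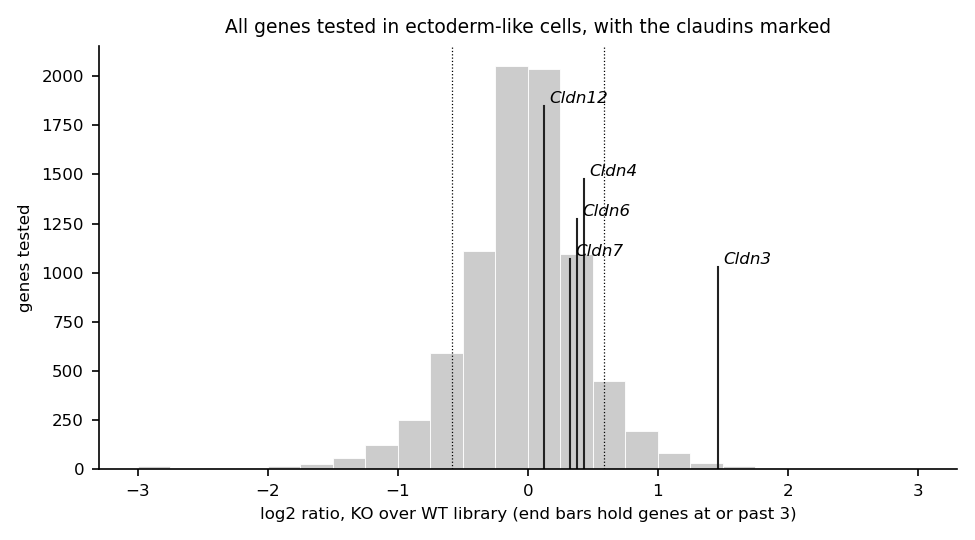
Histogram of the log2 ratio of the KO-labelled library over that labelled WT (x axis) for the 8166 genes with at least 20 UMIs in ectoderm-like cells (y axis, number of genes), with black lines at the 5 claudins among them and dotted lines at 1.5-fold. *Cldn3* lies past the upper dotted line, and the other 4 claudins lie to the right of the centre but within the dotted lines.

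The ectoderm-like cells of the libraries also differed in other genes, whose part in these ratios was not tested. The summed lens placode markers stood at 1304 CPM in the WT-labelled library and 811 CPM in that labelled KO, *Pax6* alone at 296 and 204 CPM. *Dlx5*, a gene of placodal and anterior surface ectoderm, stood at 20.6 and 51.3 CPM, a ratio of 2.50 [1.52, 4.18], and the short list of *Pax2*, *Vax1* and *Vax2* at 7.91 and 54.4 CPM. The summed optic vesicle markers, *Six3* among them, stood at 493 and 591 CPM in ectoderm-like cells, against 1399 and 1423 CPM in optic vesicle-like cells. A list of general neural markers, *Pax6* among them, went the other way, at 402 and 336 CPM in ectoderm-like cells. Haemoglobin and other erythrocyte markers stood at 156 and 357 CPM. Their sum was higher in the KO-labelled library in every other class too, so this difference was not particular to the ectoderm. That sum stood at 217 and 622 CPM in endothelium-like cells and at 200 and 448 CPM in mesenchyme-like cells. The markers of surface ectoderm outside the lens placode were close, at 433 and 394 CPM, as were *Epcam* (330 and 365 CPM) and *Krt18* (402 and 388 CPM). The keratin gene *Krt8* was lower in the KO-labelled library, at 303 and 231 CPM (0.764 [0.644, 0.904]). That *Krt8* ratio includes the *Cldn5*-positive cell of the WT-labelled library described above, which held 31 *Krt8* UMIs.

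Cell by cell, *Cldn3* was found in a larger share of the ectoderm-like cells labelled KO. In the WT-labelled library 13 of 62 ectoderm-like cells held a *Cldn3* UMI (21% [11.7, 33.2]) and in that labelled KO 30 of 49 (61.2% [46.2, 74.8]). At an equal depth of 10000 UMIs a cell, with 4 shallower cells of each library set aside, the shares were 8 of 58 (13.8%) and 19 of 45 (42.2%). Among the cells of the WT-labelled library, 9 held 1 UMI and 4 held more, up to 6. Without the cell described above the WT-labelled share was 12 of 61 (19.7% [10.6, 31.8]), with up to 5 UMIs. Among those labelled KO, 17 held 1 UMI and 13 held more, up to 4. *Cldn6* ran from 0 to 16 UMIs with a median of 3 in the WT-labelled library and from 0 to 18 with a median of 4 in that labelled KO. *Cldn7* had a median of 2 in both, and *Cldn4* reached 4 in both. All 4 genes were found together in 7 of 62 cells (11.3%) of the WT-labelled library and in 18 of 49 (36.7%) of the other; after thinning these were 4 of 58 (6.90%) and 6 of 45 (13.3%). Over cells, the CPM of *Cldn6* correlated with that of *Epcam*, with Pearson's r of 0.47 over 62 cells and 0.61 over 49 cells, more than with *Cldn7* (0.33 and 0.36), and *Cldn3* was weakly related to the other 3 (from -0.07 to 0.23). The cells of each correlation share a library, and in such sparse counts a weak correlation is no finding.

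**Figure D3:**
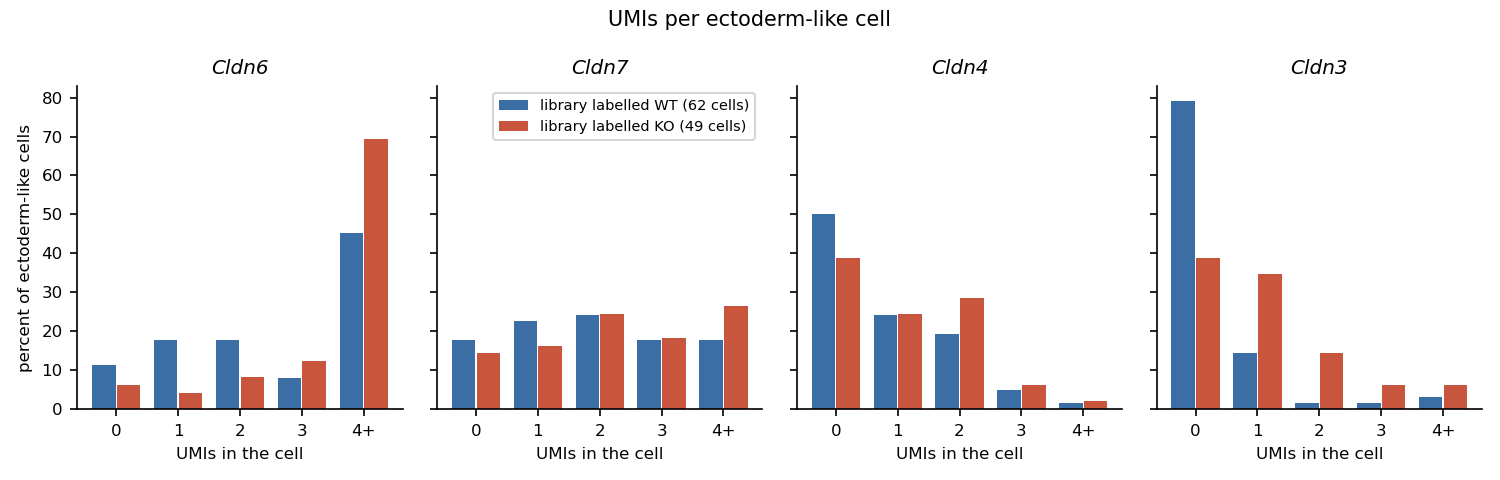
Percent of ectoderm-like cells (y axis) by the number of UMIs of each gene in the cell (x axis) in the libraries labelled WT (62 cells, blue) and KO (49 cells, red). For *Cldn3* 79.0% of cells in the WT-labelled library and 38.8% in that labelled KO hold none, while for *Cldn6* 45.2% and 69.4% hold 4 or more.

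Ectoderm-like cells were then divided at their median *Pax6* level, since *Pax6* marks the lens placode. This put 35 cells of the WT-labelled library and 20 of that labelled KO in the *Pax6*-high part, and 27 and 29 in the *Pax6*-low part. *Pax6* was itself lower in ectoderm-like cells of the KO-labelled library, so the parts need not hold like cells in both libraries. The lens placode marker *Six3* had a ratio between libraries of 0.747 [0.586, 0.947] in *Pax6*-high cells. Its levels in *Pax6*-low cells were 57.1 CPM in the WT-labelled library and 123 CPM in that labelled KO, a ratio of 2.14 [1.36, 3.47]. In the WT-labelled library, *Cldn7* was higher in *Pax6*-low than in *Pax6*-high cells, at 155 against 76.2 CPM, a ratio of 2.04 [1.43, 2.91]. *Cldn4* showed the same order, at 57.1 against 31.0 CPM and a ratio of 1.84 [1.03, 3.32], although the intervals of the 2 levels overlap. In the KO-labelled library the levels of *Cldn7* were 136 and 132 CPM (1.03 [0.717, 1.49]) and those of *Cldn4* 60.3 and 49.4 CPM. For *Cldn7* the parts stood apart in the WT-labelled library and overlapped in that labelled KO, a difference that could not be tested with 1 library each. Between libraries, *Cldn7* had a ratio of 1.73 [1.18, 2.54] in *Pax6*-high cells and 0.875 [0.625, 1.22] in *Pax6*-low cells. *Cldn3* had 20 and 20 UMIs in *Pax6*-high cells, a ratio of 1.82 [0.931, 3.57], which became 2.51 without the cell described above. In *Pax6*-low cells it had 5 and 32 UMIs, or 10.2 and 60.3 CPM, a ratio of 5.91 [2.29, 19.4]. *Cldn4* had 24 and 21 UMIs in *Pax6*-high cells, a ratio of 1.60 [0.845, 2.99]. This interval and that of *Cldn3* in *Pax6*-high cells, taken with the cell described above, include no difference. No interval is given for the *Cldn3* ratio of 2.51 without that cell. Of the 4 claudins, *Cldn3*, *Cldn4* and *Cldn7* were past 1.5-fold in *Pax6*-high cells, beside 23.3% of 6290 genes (10.8% higher), and *Cldn3* in *Pax6*-low cells, beside 20.9% of 5818 genes (7.99% higher). *Cldn6* was within it in both, at 1.42 [1.11, 1.82] and 1.17 [0.899, 1.53]. When the cells were divided into 2 subclusters instead, with 39 WT-labelled and 23 KO-labelled cells in the one with more *Pax6* and 23 and 26 in the other, *Cldn3* had ratios of 1.89 and 6.63, but those of *Cldn7* were 1.08 and 1.37 and those of *Cldn6* 1.01 and 2.08. The order of the parts for *Cldn6* and *Cldn7* therefore rested on how the ectoderm was divided. Among the other claudins, *Cldn11* gave 1 UMI in *Pax6*-high and 18 in *Pax6*-low cells.

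**Figure D4:**
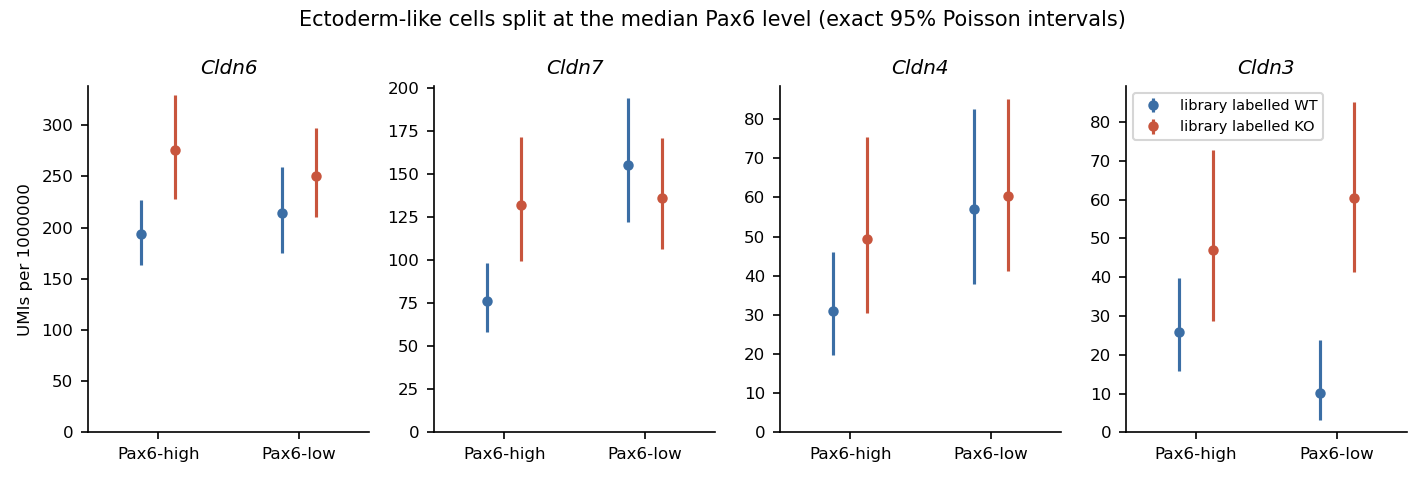
Level in UMIs per 1000000 (y axis, from 0) of 4 claudins in *Pax6*-high and *Pax6*-low ectoderm-like cells (x axis) of the libraries labelled WT (blue) and KO (red), with exact 95% Poisson intervals. *Cldn7* is at 76.2 in *Pax6*-high cells of the WT-labelled library, below the other 3 values, and *Cldn3* at 10.2 in its *Pax6*-low cells, below the other 3.

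Most junction partners of claudins were within 1.5-fold. Of 33 listed symbols, some of which may name the same gene, 31 were in the tables, 30 had a UMI in ectoderm-like cells and 25 had at least 20. Of these 25, 3 were past 1.5-fold higher in the KO-labelled library, 2 lower and 20 within. The share past 1.5-fold was thus close to that of all genes given above. The highest ratios were those of *Crb3* (25.3 and 60.7 CPM, 2.40 [1.53, 3.82]), which anchors the apical Crumbs polarity complex, and *Cgn* (17.4 and 38.7 CPM, 2.23 [1.28, 3.96]), which encodes the junctional plaque protein cingulin. The scaffold gene *Magi1* followed at 1.61 [0.746, 3.52], then *Tjp3* (ZO-3) at 1.46 and the atypical kinase C gene *Prkcz* at 1.42, whose intervals all include no difference. The lowest were *Cgnl1* (39.5 and 24.1 CPM, 0.609 [0.355, 1.02]), which encodes the cingulin-like paracingulin, and the multi-PDZ scaffold gene *Mpdz* (22.9 and 14.7 CPM, 0.639 [0.312, 1.25]). *Magi3* at 0.883, *Ybx3* at 0.922 and *Prkci* at 0.950 came next. The ZO scaffold gene *Tjp1* was level, at 57.7 and 57.6 CPM. *Ocln*, which encodes occludin, gave only 5 and 4 UMIs in these cells.

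**Figure D5:**
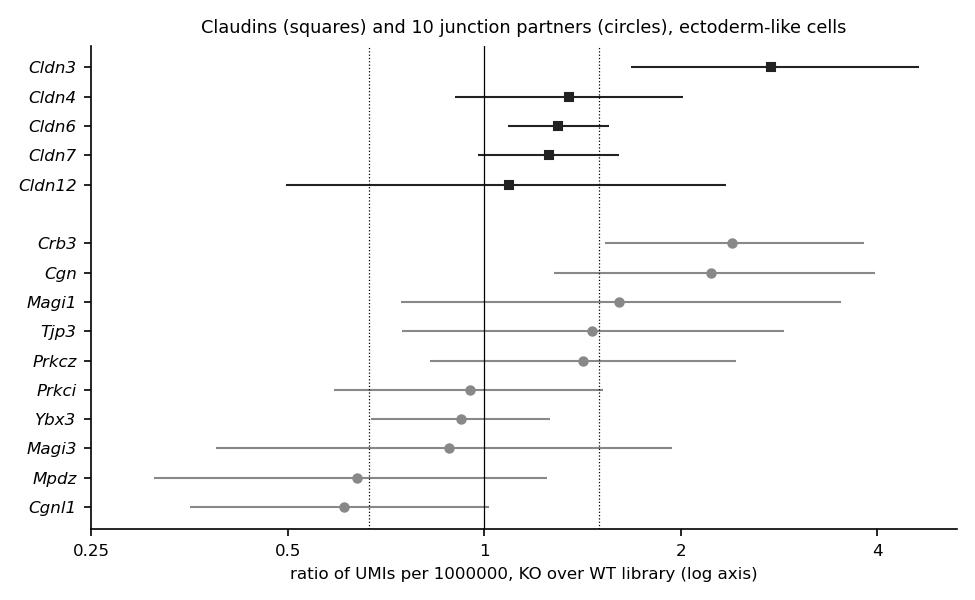
Ratio of UMIs per 1000000 in ectoderm-like cells, KO-labelled over WT-labelled library (x axis, logarithmic), for 5 claudins (squares) and the 5 highest and 5 lowest junction partners (circles) with at least 20 UMIs (y axis); bars are exact 95% intervals, dotted lines mark 1.5-fold. The intervals of *Cldn3*, *Crb3*, *Cgn* and *Cldn6* lie above 1, and those of the other genes shown include 1. They cover counting error only and leave out the spread between cells and embryos.

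Of the epithelial regulators, *Grhl2*, a grainyhead factor with claudin genes among its known targets, was lower in the ectoderm-like cells of the KO-labelled library, with 46 and 20 UMIs (36.4 and 20.9 CPM, a ratio of 0.576 [0.323, 0.993]). *Tfap2a* stood at 97.3 and 64.9 CPM (0.667 [0.484, 0.913]), *Trp63* at 45.9 and 47.1 CPM and *Tfap2c* at 7.91 and 13.6 CPM. *Grhl3* and *Ovol1* stayed at or below 5.23 CPM in both libraries, and *Klf5* had no UMI in these cells. Over all ectoderm-like cells, 10.4% of 8166 genes were past 1.5-fold lower in the KO-labelled library. In *Pax6*-high cells *Grhl2* had 18 and 10 UMIs, a ratio of 1.01 [0.418, 2.31]. *Cldn3*, *Cldn4* and *Cldn7* were past 1.5-fold higher in that part. In *Pax6*-low cells *Grhl2* had 28 and 10 UMIs, a ratio of 0.33 [0.143, 0.6999]. There *Cldn3* had a ratio of 5.91, but *Cldn4* 1.06, *Cldn6* 1.17 and *Cldn7* 0.875. Whether the claudin and *Grhl2* ratios are related was not tested.

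In endothelium-like cells *Cldn5* stood at 575 CPM [542, 609] in the WT-labelled library and 703 CPM [671, 736] in that labelled KO, a ratio of 1.22 [1.13, 1.32], within 1.5-fold. *Cldn12* gave 15 and 11 UMIs there and was called lower, with a ratio of 0.548 [0.228, 1.28] whose interval includes no difference, beside 12.4% of 9327 genes past 1.5-fold in that class (6.92% lower), and at an equal depth of 10000 UMIs a cell its ratio was 1.28. *Sox18* had a ratio of 1.51 [1.24, 1.84], *Sox17* 0.821 and *Cdh5* 0.784 in the same cells. In mesenchyme-like cells *Cldn12* was level, at 12.3 and 12.6 CPM (1.02 [0.798, 1.32]), beside 6.78% of 11767 genes past 1.5-fold.

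In the 4 neural classes together *Cldn12* was also level, at 10.7 and 10.9 CPM (1.01 [0.861, 1.20]), and in the *Pax2*/*Vax2*-high class alone at 57 and 99 UMIs, or 8.47 and 12.5 CPM (1.47 [1.05, 2.07]). *Cldn3* went the other way from the ectoderm, with 44 and 33 UMIs at 1.81 CPM [1.32, 2.43] and 1.05 CPM [0.721, 1.47], a ratio of 0.579 [0.357, 0.930]. *Cldn5* gave 14 and 33 UMIs (1.82 [0.947, 3.68]), 18 of the 33 in optic vesicle-like cells against 2 in the WT-labelled library, in 0.687% and 3.42% of cells, shares not above that of erythrocyte-like cells. Of 5 members with 20 UMIs in these classes, *Cldn3* was past 1.5-fold lower and *Cldn5* higher, beside 5.99% of 13364 genes (3.43% higher and 2.55% lower). By class, *Cldn3* gave 11 and 13 UMIs in optic vesicle-like, 5 and 4 in pigment epithelium-like, 15 and 12 in *Pax2*/*Vax2*-high and 13 and 4 in forebrain-like cells. Its CPM was lower in the KO-labelled library in all 4 classes, with the widest gap in forebrain-like cells, at 4.20 and 1.14 CPM. The neural *Cldn3* ratio was 0.597 without 2 clusters mostly made of the WT-labelled library, and 0.676 with a stricter gate and 0.736 at equal depth, both within 1.5-fold. That of *Cldn5* lay between 1.12 with clusters in place of the gate and 2.82 as a mean over cells. Over all cells the libraries were level for *Cldn3*, at 1.67 and 1.70 CPM.

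The genes most like each member over 20 sums of class and library were ranked by Pearson's r of log2(CPM + 1) among 12183 genes with at least 100 UMIs. *Cldn4* and *Cldn6* were nearest to each other (r = 0.994), followed for both by *Fermt1*, a kindlin gene of epithelia (0.992 for each), and then by *Krt7* for *Cldn4* and *Wnt6* for *Cldn6*. *Cldn7* was nearest to *Barx2* (0.984), *Wnt6* and *Krt7*. *Wnt6* was 1 of the gate's markers, so its likeness is partly given by the gate. *Cldn3* was nearest to *Cacna1b* (0.952), *Zbtb8b* and *Spint1*, the last a protease inhibitor gene of epithelia. *Cldn5* was nearest to *Gm9917* (0.988), *Bcl6b* and *Thsd1*, and *Cldn12* to *Zdbf2* (0.967), *Dync1li2* and *Prom1*. *Cldn9* was nearest to *Rpp25* (0.928), *Tfap2a* and *Erbb3*, and *Cldn1* to *Grb7* (0.888), *Cyp1b1* and *Glis3*, on few counts. The sums of a class in both libraries share the same gate, so that the 20 points are not independent. For a gene counted almost only in 1 class, r rests mostly on the sums of that class. Over single ectoderm-like cells *Cldn4* and *Cldn6* correlated less, at 0.28 in 62 cells of the WT-labelled library and 0.42 in 49 of that labelled KO.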

How the data were processed

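Per the labels and the methods, the authors sequenced each library with the Chromium Single Cell 3′ v3 kit and made the UMI tables with Cell Ranger on the mm10 (GRCm38) build; the deposited values are whole-number counts, not normalised. The libraries were combined with a program that can subsample reads between them. The filter kept cells with 1500 to 8000 genes, as in the methods, and a mitochondrial share up to 5%; the methods print this limit as 0.05%, which would keep 39 barcodes and was read as a fraction of 0.05. It left 1680 of 1745 and 2404 of 2458 barcodes. Classes were set by the mean z-score of each marker list. A cell past the limit of a non-neural list (1, or 0.5 for mesenchyme) took the highest-scoring of those passed, whatever its neural scores. Any other cell took the highest-scoring neural list past 0.3, or stayed ungated. Of 27998 identifiers 27722 matched GENCODE M21.

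Counts were summed per class and library in Python 3.11.15 with SciPy 1.17.1; clusters and Scrublet doublet scores (21 and 31 cells past 0.25, kept in the sums) came from Scanpy 1.11.5. With 1 library per genotype no test was run. A 3′ UMI counts transcript ends and was not divided by gene length. The intervals were checked only on simulated Poisson counts, which hold no spread between cells or embryos, so the check says nothing of such spread. Members and lists were chosen with earlier results of these data known, and the gate's limits, the doublet limit, the E-box and the Snail and Zeb genes after values were seen. Named were the members in every class and other *Cldn* genes with 10 UMIs in a class or in the neural classes together. Also named were the 5 highest and 5 lowest junction partners, the 3 genes most like each member, and listed markers and regulators.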

Additional observations from a re-analysis of the deposited data

How the results depend on the processing

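The ratio of *Cldn3* in ectoderm-like cells lay between 2.75 and 3.74 under all alternatives run, those of *Cldn4* between 1.09 and 1.40, *Cldn6* between 1.21 and 1.42 and *Cldn7* between 1.10 and 1.33. These alternatives were clusters in place of the gate, a stricter gate, no mitochondrial limit, no limit on cells, no Scrublet doublets, means over cells, thinned cells, 2 other scalings and, chosen after seeing the data, leaving out the *Cldn5*-positive cell, the barcodes of both libraries or 2 clusters mostly of the library labelled WT. Of 311 alternative values for 34 results, 286 stayed within the counting interval of the reported value, 24 moved outside it and 1 reversed. This tally is no measure of robustness, because some values could not change. Leaving out shared barcodes, for example, removed no ectoderm-like or endothelium-like cell. Many levels that moved did so through the smaller total of the scaling without mitochondrial, ribosomal and haemoglobin genes. With cells thinned to 10000 UMIs the *Cldn5* ratio in endothelium-like cells was 1.34, and that of *Cldn12* there reversed to 1.28, on few counts. With 2 subclusters in place of the *Pax6* division the *Cldn6* ratio was 1.01 in the *Pax6*-high and 2.08 in the *Pax6*-low one, and the *Cldn7* ratio 1.08 and 1.37; the cause was not tested. Scaling without mitochondrial, ribosomal and haemoglobin genes raised every claudin level, such as *Cldn6* from 202 to 302 CPM in ectoderm-like cells of the library labelled WT. A minimum of 5 UMIs raised the share of ectoderm genes past 1.5-fold from 17.6% to 29.4%. Depth limits *Cldn1*, *Cldn9* and the claudins outside their main class. No paired analysis was possible because each genotype has 1 library.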
